A study of Mus musculus with 15 samples.

Results

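The genes described here are 45 solute transporters of the kidney proximal tubule, followed over 15 Affymetrix mouse gene arrays. They were taken from a fixed list of symbols, and a probe set stood for a gene when the platform annotation gives it that symbol alone. All 45 were measured, each by 1 probe set, among 19938 genes with a probe set of their own. The values are log2 probe set signals as deposited, and because probe sets differ in brightness for the same amount of RNA, a gene is compared only with itself across arrays.

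The embryonic group holds single cells of the tissue from which nephrons form, the metanephric mesenchyme (MM), picked at embryonic day 11.5 from mice with the transgene Tg(Crym-EGFP)GF82Gsat. The labels leave their sex open, and the cells number 14, 15, 16 and 19. Single juxtaglomerular (JG) cells, the renin-making cells beside the glomerulus, came from adult male mice with a Ren1c-YFP reporter and number 4 to 8. The dissection text for these cells names a Ren1d GFP line instead. Cortex of adult male Renin-YFP mice, a mixture of cell types with the medulla removed, was labelled by 2 routes with 3 libraries each, A, B and C. Diluted cortex was lysed, diluted and amplified with the single cell protocol (32 rounds in the labels), and standard-labelled cortex with the NuGEN WT-Ovation Pico kit (1 round). No strain is specified in any group. The samples are recorded as not pooled, but no label names an animal, so the cells of a type count as 1 sample and have no test. The reporters mark cells by Crym or renin regulatory sequence, and the title speaks of FACS where the protocols describe pulled glass needles.

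The proximal tubule takes back most of the filtered glucose, amino acids, phosphate and bicarbonate, and secretes organic anions and cations. Carriers of the brush border use the sodium gradient to draw solutes out of the filtrate, and carriers of the opposite, basolateral membrane pass them to the blood. Secretion runs the other way, with uptake on the basolateral side and exit through exchangers and ABC pumps on the luminal side. HNF1 and HNF4 transcription factors are known regulators of many of these genes.

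RefSeq promoters of assembly GRCm38.p6, from 250 bases before to 50 after a gene's start, were given for 38 of the 45 genes. They were searched on both strands for the HNF1 motif GTTAAT, for the full HNF1 site (GTTAAT, any base and the reverse complement of GTTAAT), which contains it, and for the HNF4 motif TGNACTTTG. GTTAAT was found in 7 of the 38 genes (18.4%), against 8.24% of 27025 genes with a promoter in the table. The full HNF1 site and the HNF4 motif were found in 0 and 2 of the 38 (0.0% and 5.26%), against 0.0111% and 1.64% of all genes. Some genes have several promoters, and a match in any of them counted. Neither the number of promoters per gene nor their base composition was made alike between the 38 and all genes. A match is a run of letters and not a measured binding site, and no binding was measured here. The 250 bases upstream of 5 genes, all on the + strand, are shown as examples of genes that hold a match. They are not simply the brightest such genes in cortex. Slc7a7, not shown, had means of 10.75 in diluted and 10.30 in standard-labelled cortex, above Slc22a8 (10.33 and 9.86). Of the 9 cells, Cltrn and Slc3a1 were above background in 0, Slc34a1 and Slc22a6 in 1 and Slc22a8 in 3. Capitals mark GTTAAT or its reverse complement and, in Slc3a1, the HNF4 match. The coordinates are chr13:55399398-55399647 for Slc34a1, chrX:164089937-164090186 for the Cltrn promoter that holds the motif, chr17:85028097-85028346 for Slc3a1, chr19:8617746-8617995 for Slc22a6 and chr19:8592932-8593181 for Slc22a8.
Slc34a1: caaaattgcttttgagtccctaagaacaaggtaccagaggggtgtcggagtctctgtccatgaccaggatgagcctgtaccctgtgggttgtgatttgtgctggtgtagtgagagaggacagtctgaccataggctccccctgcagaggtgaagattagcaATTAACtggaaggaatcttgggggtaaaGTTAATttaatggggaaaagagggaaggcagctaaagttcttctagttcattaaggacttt
Cltrn: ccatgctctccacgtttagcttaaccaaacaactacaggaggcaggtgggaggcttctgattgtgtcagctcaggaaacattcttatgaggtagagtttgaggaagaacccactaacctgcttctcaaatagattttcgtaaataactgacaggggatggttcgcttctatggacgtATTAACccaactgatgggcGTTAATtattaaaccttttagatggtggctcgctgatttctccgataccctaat
Slc3a1: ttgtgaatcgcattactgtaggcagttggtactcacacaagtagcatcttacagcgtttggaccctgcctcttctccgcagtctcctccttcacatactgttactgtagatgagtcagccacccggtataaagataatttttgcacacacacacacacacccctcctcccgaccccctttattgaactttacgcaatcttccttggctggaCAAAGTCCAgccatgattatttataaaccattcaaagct
Slc22a6: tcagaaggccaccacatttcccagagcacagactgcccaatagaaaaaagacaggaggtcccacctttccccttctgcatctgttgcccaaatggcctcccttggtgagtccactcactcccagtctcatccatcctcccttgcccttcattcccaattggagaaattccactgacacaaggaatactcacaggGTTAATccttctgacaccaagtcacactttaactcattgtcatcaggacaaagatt
Slc22a8: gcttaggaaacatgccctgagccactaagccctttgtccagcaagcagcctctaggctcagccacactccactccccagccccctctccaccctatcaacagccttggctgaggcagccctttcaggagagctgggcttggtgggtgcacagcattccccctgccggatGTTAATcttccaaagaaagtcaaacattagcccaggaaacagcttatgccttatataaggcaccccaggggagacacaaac
In Slc34a1 the 2 matches begin 89 and 61 bases before the gene's start, and in Cltrn 73 and 54 bases before it. The matches of Slc22a6 and Slc22a8 lie 56 and 81 bases before the start. In Slc3a1 the HNF4 match lies 39 bases before the start and a GTTAAT match 1 base after it, past the stretch shown. Slc5a10 and Slc7a7 were the other genes with GTTAAT, and Slco1a6 the other gene with the HNF4 match.

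Olfactory and vomeronasal receptors, 1212 probe sets, were taken as a measure of signal without transcript, since kidney cells are not known to need them in number. Their median was 4.86 to 5.35 in the single cells and 4.15 to 4.21 in cortex, so a shift of 1.05 (JG cells) or 0.84 (MM cells) against diluted cortex belongs to background. A gene is called above background on an array when it exceeds the receptors' 99th percentile there, which was 7.13 to 7.92 in cells and 6.18 to 6.51 in cortex. All 8 other markers of the proximal tubule (Lrp2, Cubn, Fbp1, Gatm, Miox, Gpx3, Kap and Pck1) were above background in each cortex library, against 0 to 2 of 8 in each cell. Cubn carries little in that count, since its mean in diluted cortex, 7.05, lies under the background level of every cell. Of the 4 renin cell markers measured, Crip1 was above background in all 5 JG cells (13.01, 12.19, 12.71, 12.11 and 11.96) and Rgs5 in 3 of them (10.44, 6.82, 9.76, 10.55 and 5.99), while Aldh1a1 and Nt5e were below it in each. Ren1 itself has no probe set of its own here. The progenitor gene Six2 measured 7.53, 7.18, 10.13 and 6.69 in the MM cells and passed background in cells 14 and 16. Crym, whose regulatory sequence drives the MM reporter, measured 7.27, 7.50, 8.61 and 6.90 there, above background in cells 14, 15 and 16 but under the 11.02 to 11.20 of diluted cortex. JG cells gave 6.29, 7.77, 7.04, 7.76 and 7.36 for Crym, of which cell 7 passed its background, 7.70. Six2 and Crym belong to a list of 10 nephron progenitor genes. Of these, 2 to 5 were above background in each MM cell and 1 to 5 in each JG cell. The list's median difference, MM minus JG, was -0.13, so as a set it did not tell MM from JG cells. Of 3 stroma progenitor genes, 0 to 2 were above background in each MM cell and 0 in each JG cell. Foxd1, among them, measured 9.03 and 11.33 in MM cells 14 and 19.

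The transporters were above background in cortex, with few exceptions, and mostly at background in single cells. Diluted libraries A, B and C had 44, 44 and 45 of the 45 above background (50.5%, 48.3% and 48.4% of all genes), and standard-labelled ones the same numbers (43.7%, 48.2% and 47.9%). In all 3 libraries, 43 passed in diluted cortex (45.9% of all genes) and 44 in standard-labelled cortex (42.7%). In the single cells the count was 5, 4, 2 and 4 in MM cells 14, 15, 16 and 19 (20.7%, 15.8%, 10.9% and 21.2% of all genes), and 1, 2, 3, 2 and 5 in JG cells 4 to 8 (9.09%, 6.91%, 10.1%, 10.7% and 14.3%). The median signal of the 45 was 6.24 to 6.65 in the cells, 9.62 to 9.73 in standard-labelled and 10.59 to 10.80 in diluted cortex.

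**Figure D1:**
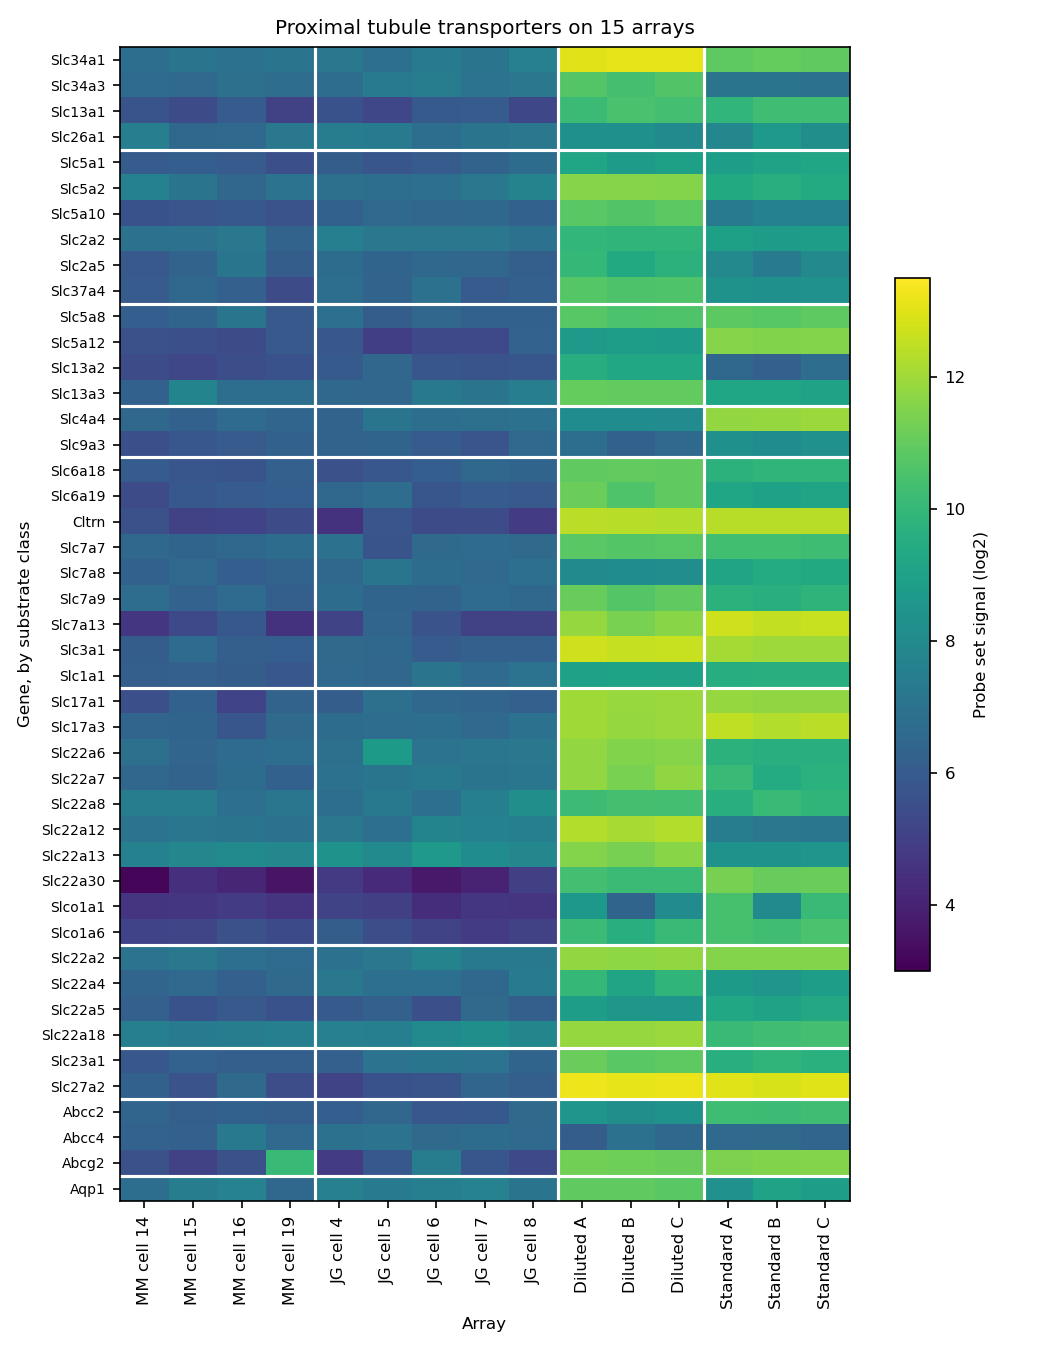
Signal (log2, colour) of the 45 transporters (rows, in substrate classes parted by white lines) on the 15 arrays (columns, in groups parted by white lines). The cells keep to 3.20 to 8.74 apart from Abcg2 in MM cell 19 (10.12), while diluted cortex reaches 13.22 for Slc27a2.

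JG cells were set against diluted cortex because the labels give that as its purpose. A gene was called lower when its mean lay at least 1 log2 unit further down than the receptor shift and no cell reached the lowest cortex library. By this rule 43 of 45 transporters were lower in JG cells, where 29.3% of all genes were, and 0 were higher (0.487%). The exceptions were Slc9a3, the sodium-proton exchanger, and Abcc4, an organic anion efflux pump, both dim in diluted cortex. Of all genes only 45.9% were above background in every diluted library. A gene at background there can hardly be called lower, so the share over all genes is no like baseline for the transporters. The same holds for the MM cells and for standard-labelled cortex below. The median difference in signal was -4.18 over the transporters and 0.56 over all genes, or -5.24 and -0.49 beyond the receptor shift. In MM cells, 44 of 45 were lower, all but Abcc4, where 24.0% of all genes were, and 0 were higher (0.607%), with a median difference of -4.40 (all genes 0.42). The Abcc4 differences were 0.25 for JG and 0.07 for MM cells. MM and JG cells were set against each other as well, and 0 of 45 transporters lay apart by the same rule (0.186% of all genes were lower and 1.06% higher in MM cells). Their median difference, MM minus JG, was -0.31, of which the receptor shift was -0.21. Against standard-labelled cortex, 40 of 45 were lower in JG cells and 44 in MM cells, where 26.9% and 23.5% of all genes were. Of the 5 not called in JG cells, Slc34a3, Slc13a2, Slc22a12 and Abcc4 measured at most 7.44 in that cortex. The fifth, Slc22a13, measured 8.39 to 8.52 there and overlapped its own JG cells (7.86 to 8.70).

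Because a cell at background gives only a limit, each fold below is a lower bound, from the cortex mean down to the mean over cells of the higher of the gene's signal and the receptors' 99th percentile. The long-chain fatty acid carrier Slc27a2 was at least 44.0-fold lower in JG cells and at least 58.8-fold lower in MM cells than in diluted cortex. For the phosphate carrier Slc34a1 the bounds were 40.8-fold and 54.6-fold, and for the amino acid carrier subunit Slc3a1 30.2-fold and 40.4-fold. Because the receptor shift is upward, a gene could be called lower at a small difference in signal, such as -0.63 for Slc9a3 in MM cells. Its bound there was 0.595-fold, and that of Slco1a1 in JG cells 0.975-fold. A bound under 1 shows no difference, though both were called lower. A signal at background in a cell need not mean that the RNA was absent from it. Slc25a4, of a list of transporters of most cell types, measured 6.04 in JG cell 6, under its background of 7.73. The other JG cells gave 10.55 to 12.69 for it and the MM cells 11.21 to 12.29. The part of RNA lost in amplification of single cells was not tested. These comparisons set 1 sample of cells against a tissue, so they have no p. In the mixed cortex, fewer cells of a type and less RNA per cell cannot be told apart.

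The cortex labellings were then compared with each other, with limma on the 6 cortex arrays and Benjamini-Hochberg adjustment over the 17779 probe sets whose mean reached the median of all. All 45 transporters entered. Of these, 38 passed an adjusted p of 0.05, 25 higher and 13 lower in diluted cortex, where 75.4% of all probe sets tested passed (40.4% higher and 35.0% lower). The share is close to the background. The libraries of the 2 labellings did not overlap in 39 of 45 transporters and in 61.2% of all genes. That share is over all 19938 genes, without the filter on dim probe sets, so it is no like baseline for the transporters. The median absolute log2 fold change was 1.18 over the transporters and 0.76 over all probe sets tested. By at least 1 log2 unit, 19 transporters were higher and 7 lower, where 22.3% and 18.0% of all probe sets were. The median log2 fold change was 0.44, against 0.05 over all probe sets tested, which another scaling, by each array's median, moves to 0.62 and 0.23. Nothing says that the libraries come from separate mice, so each p-value speaks for the spread of these 6 libraries alone, and that spread may be technical.

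**Figure D2:**
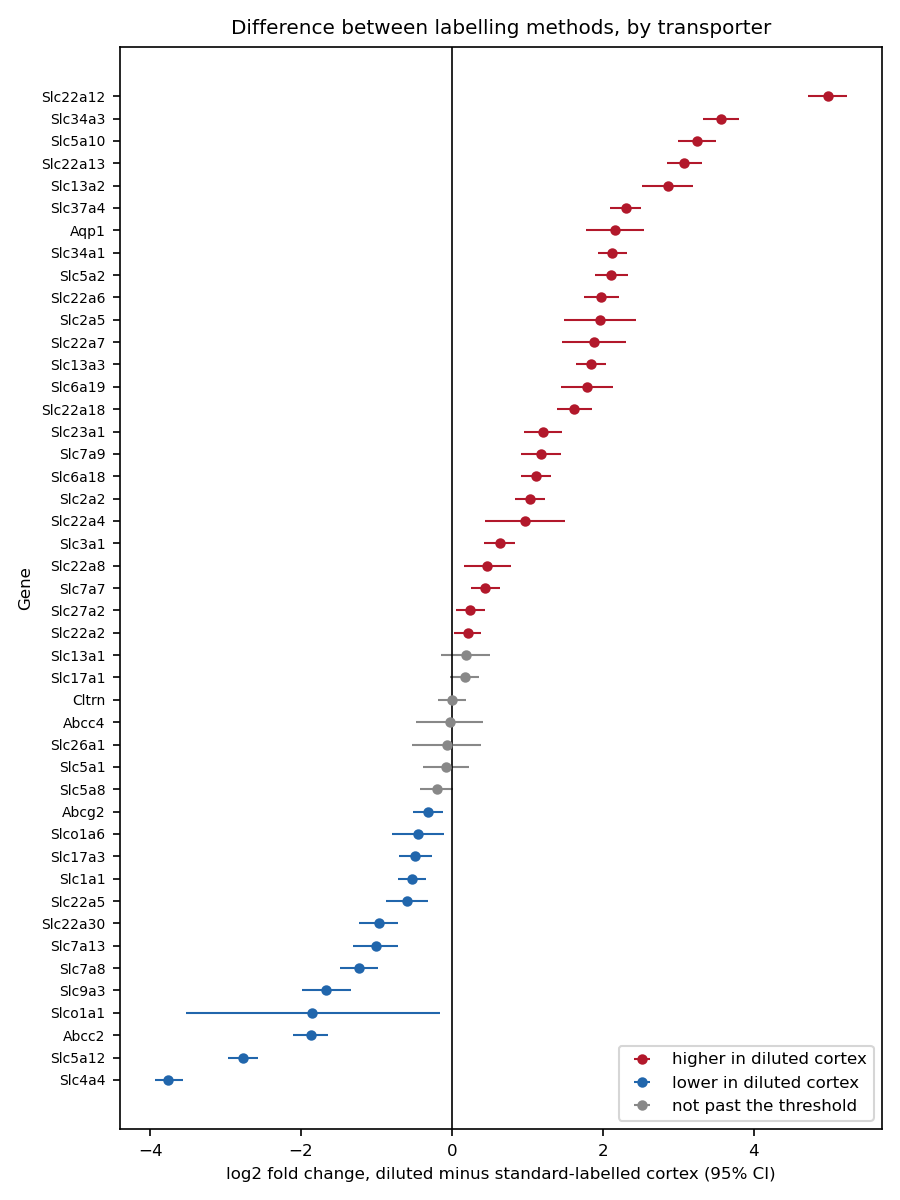
Log2 fold change of each transporter, diluted minus standard-labelled cortex, with its 95% confidence interval from limma (3 libraries each). Points run from Slc4a4 at -3.76 to Slc22a12 at 4.98, and the interval of Slco1a1, from -3.53 to -0.16, is the widest.

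Among the carriers of phosphate and sulfate, 2 of 4 were higher in diluted cortex and 2 did not pass. Slc34a1, the main brush border phosphate carrier, measured 13.03, 13.11 and 13.09 in diluted and 10.90, 11.02 and 10.95 in standard-labelled cortex. JG cells gave 7.19, 6.85, 7.32, 7.02 and 7.56, and MM cells 6.81, 7.06, 6.96 and 7.06. Every cell lay far below every cortex library, and of the 9 cells JG cell 8 alone passed its background level, of 7.55, by 0.01. Between the labellings it had a log2 fold change of 2.12 (SE 0.08, adjusted p = 1.5e-07). Slc34a3, a phosphate carrier of the same family, measured 10.67, 10.39 and 10.64 in diluted but 7.02, 7.05 and 6.92 in standard-labelled cortex, a log2 fold change of 3.57 (SE 0.10, adjusted p = 5.2e-08). Its cells gave 6.77, 7.31, 7.44, 6.98 and 7.17 (JG) and 6.67, 6.58, 6.88 and 6.76 (MM), a span that overlaps the standard-labelled libraries and not the diluted ones. The brush border sulfate carrier Slc13a1 was nearly level between the labellings, at 10.15, 10.49 and 10.36 against 9.90, 10.26 and 10.29 (adjusted p = 0.26). Its JG cells gave 5.66, 5.22, 5.97, 6.04 and 5.29 and its MM cells 5.73, 5.41, 6.06 and 5.03, all below background. Slc26a1, the basolateral sulfate exchanger, measured 8.25, 8.26 and 8.01 in diluted and 7.87, 8.68 and 8.18 in standard-labelled cortex, overlapping (adjusted p = 0.74), with 7.47, 7.28, 6.78, 7.03 and 7.16 in JG and 7.51, 6.56, 6.58 and 7.22 in MM cells. Of the cells, MM cells 14 and 19 were above background for it.

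Of the 6 sugar carriers, 5 were higher in diluted cortex, each by at least 1 log2 unit, and Slc5a1 did not pass. Slc5a2, the glucose carrier SGLT2 of the early proximal tubule, measured 11.60, 11.59 and 11.55 in diluted and 9.37, 9.62 and 9.43 in standard-labelled cortex, a log2 fold change of 2.11 (SE 0.09, adjusted p = 2.9e-07). In JG cells it gave 6.89, 6.81, 6.84, 7.21 and 7.71 and in MM cells 7.60, 7.05, 6.48 and 7.0. Background was passed in JG cell 8 and MM cell 14, both well under the lowest cortex library. Slc5a10, a mannose and fructose carrier, had the third highest fold change of the 45, with 10.83, 10.64 and 10.84 against 7.35, 7.61 and 7.60, a log2 fold change of 3.25 (SE 0.11, adjusted p = 8.1e-08). Its cells, at 6.27, 6.58, 6.48, 6.53 and 6.28 (JG) and 5.65, 5.75, 5.90 and 5.69 (MM), all lay at background. Slc5a1, the glucose carrier SGLT1 of the late proximal tubule, gave 9.19, 8.76 and 8.96 against 8.89, 9.06 and 9.19 and did not pass (adjusted p = 0.61). JG cells gave 6.11, 5.83, 6.07, 6.34 and 6.70 and MM cells 6.07, 6.15, 6.01 and 5.56, below both labellings. Slc2a2, the basolateral glucose exit GLUT2, measured 9.95, 9.88 and 9.88 against 8.97, 8.82 and 8.83 (log2 fold change 1.03), with 7.54, 7.22, 7.18, 7.17 and 6.97 in JG and 6.93, 6.94, 7.21 and 6.33 in MM cells, all below background. The fructose carrier Slc2a5 and Slc37a4, which takes glucose-6-phosphate into the endoplasmic reticulum, were higher in diluted cortex by 1.96 and 2.30 and at background in each cell.

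Carriers of monocarboxylates and dicarboxylates went both ways. Slc5a12, a lactate carrier of the early tubule, measured 8.69, 8.86 and 8.80 in diluted and 11.58, 11.51 and 11.56 in standard-labelled cortex, a log2 fold change of -2.77 (SE 0.09, adjusted p = 6.2e-08). Its cells gave 5.86, 4.95, 5.30, 5.31 and 6.29 (JG) and 5.60, 5.57, 5.42 and 5.92 (MM), all at background. The related carrier Slc5a8 gave 10.77, 10.54 and 10.61 against 10.87, 10.78 and 10.89, which did not pass (adjusted p = 0.079) though the libraries did not overlap. JG cells gave 6.84, 6.09, 6.48, 6.26 and 6.28 and MM cells 6.15, 6.37, 7.10 and 5.92 for it. Slc13a2, the brush border carrier of citrate and other dicarboxylates, was 9.54, 9.30 and 9.25 in diluted but 6.51, 6.24 and 6.75 in standard-labelled cortex, a log2 fold change of 2.86 (SE 0.14, adjusted p = 5.6e-07). It was above background in each diluted library but in only 1 of the standard-labelled ones, and standard-labelled cortex overlapped the JG cells (5.99, 6.46, 5.81, 5.73 and 5.82). MM cells lay lower still, at 5.43, 5.24, 5.52 and 5.66. Slc13a3, its basolateral relative, measured 11.02, 10.98 and 10.97 against 9.18, 9.22 and 9.04 (log2 fold change 1.84), 6.56, 6.46, 7.25, 7.06 and 7.49 in JG and 6.28, 7.73, 6.79 and 6.78 in MM cells, of which cell 15 passed its background.

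Both carriers of sodium, bicarbonate and acid were lower in diluted cortex. Slc4a4, which carries bicarbonate across the basolateral membrane, had the lowest fold change of all 45. It measured 8.10, 8.12 and 8.07 in diluted and 11.79, 11.85 and 11.92 in standard-labelled cortex, a log2 fold change of -3.76 (SE 0.08, adjusted p = 2.2e-08). The SD was 0.03 in diluted and 0.06 in standard-labelled cortex, and JG cells (6.34, 7.08, 6.78, 6.87 and 6.91) and MM cells (6.53, 6.26, 6.66 and 6.44) were at background. The bound on the difference from diluted cortex was thus small, 1.29-fold for JG and 1.73-fold for MM cells. Slc9a3, the brush border sodium-proton exchanger NHE3, measured 6.80, 6.28 and 6.59 against 8.25, 8.09 and 8.33, a log2 fold change of -1.67 (SE 0.14, adjusted p = 1.1e-05). In diluted cortex 2 of 3 libraries passed background, and the JG cells (6.34, 6.39, 6.06, 5.77 and 6.59) overlapped them. MM cells gave 5.57, 5.86, 6.02 and 6.25, just under the lowest diluted library.

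Of 9 amino acid genes, 5 were higher in diluted cortex, 3 lower and Cltrn did not pass. Slc7a13, a cystine and acidic amino acid carrier of the late proximal tubule, measured 11.83, 11.38 and 11.64 in diluted and 12.75, 12.52 and 12.60 in standard-labelled cortex, a log2 fold change of -1.01 (SE 0.13, adjusted p = 0.00015). JG cells gave 5.15, 6.42, 5.67, 5.04 and 5.01 and MM cells 4.67, 5.30, 5.89 and 4.54. All 9 cells were at background, at least 14.9-fold (JG) and 19.8-fold (MM) below diluted cortex. Slc3a1, the rBAT subunit that pairs with Slc7a9 and Slc7a13, measured 12.74, 12.58 and 12.60 against 12.09, 11.95 and 11.97, a log2 fold change of 0.64 (SE 0.09, adjusted p = 0.00025), with 6.62, 6.50, 6.06, 6.21 and 6.21 in JG and 6.09, 6.67, 6.18 and 6.12 in MM cells. Cltrn, collectrin, which brings neutral amino acid carriers to the brush border, was level between the labellings: 12.40, 12.36 and 12.31 in diluted and 12.36, 12.36 and 12.37 in standard-labelled cortex (adjusted p = 0.96, 95% interval of the difference -0.19 to 0.18). Its cells gave 4.55, 5.77, 5.43, 5.46 and 4.82 (JG) and 5.62, 5.07, 5.10 and 5.43 (MM), which puts them at least 24.8-fold and 33.2-fold below diluted cortex. The neutral amino acid carriers Slc6a18 and Slc6a19, the products of genes next to each other on chromosome 13, were higher in diluted cortex by 1.12 and 1.79. Slc7a9, the cystine carrier, was higher by 1.18 and Slc7a7, a basolateral carrier of cationic amino acids, by 0.44. Slc7a8, a basolateral exchanger, and Slc1a1, a glutamate carrier, had log2 fold changes of -1.23 and -0.53. The call of Slc7a7 was lost in 2 of 16 alternatives and that of Slc7a13 in 1.

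The 10 genes for organic anions and urate spanned nearly the whole range of labelling differences, with 5 higher, 4 lower and Slc17a1 not passing. Slc22a12, the urate exchanger URAT1, had the highest fold change of the 45. It measured 12.31, 12.11 and 12.27 in diluted and 7.44, 7.17 and 7.13 in standard-labelled cortex, a log2 fold change of 4.98 (SE 0.11, adjusted p = 2.5e-08). Its JG cells, at 7.19, 6.82, 7.75, 7.63 and 7.52, overlapped standard-labelled cortex, and MM cells gave 6.99, 7.13, 7.04 and 6.97. Against diluted cortex the same JG cells were at least 22.6-fold lower, so for this gene the choice of cortex decides whether a difference is seen. JG cell 6 passed its background, 7.73, by 0.02. Slc22a13, a nicotinate and urate exchanger, followed the same pattern, with 11.56, 11.36 and 11.63 in diluted and 8.39, 8.39 and 8.52 in standard-labelled cortex, a log2 fold change of 3.08 (SE 0.10, adjusted p = 7.6e-08). It was the only one of the 45 above background in all 9 cells (3.43% of all genes were so in every JG cell and 6.61% in every MM cell), at 8.37, 8.02, 8.70, 8.10 and 7.86 in JG and 7.60, 7.88, 7.98 and 7.85 in MM cells. JG cells overlapped standard-labelled cortex, and no cell exceeded the highest receptor on its array.

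Slc17a3 and Slc17a1, urate and organic anion carriers whose genes lie side by side on chromosome 13, differed little between labellings. Slc17a3 measured 12.01, 11.83 and 11.94 in diluted and 12.51, 12.31 and 12.42 in standard-labelled cortex (log2 fold change -0.49), 6.72, 6.76, 6.78, 6.57 and 6.96 in JG and 6.44, 6.39, 5.83 and 6.62 in MM cells. Slc17a1 gave 12.01, 11.90 and 11.93 against 11.84, 11.75 and 11.75 (0.17, adjusted p = 0.096), with 6.11, 6.89, 6.50, 6.41 and 6.24 in JG and 5.58, 6.27, 5.12 and 6.36 in MM cells. All cells were below background for both genes. Slc22a30, a rodent member of the organic anion carrier family, measured 10.36, 10.14 and 10.15 against 11.35, 11.05 and 11.16 (-0.97), and its cells were dim even for background, at 4.79, 4.26, 3.71, 4.01 and 5.00 (JG) and 3.20, 4.47, 4.13 and 3.57 (MM). Slco1a1, an organic anion carrier known to be higher in male than female mouse kidney, measured 8.60, 6.39 and 8.07 in diluted and 10.46, 8.04 and 10.11 in standard-labelled cortex. The labellings overlapped, with a log2 fold change of -1.85 (SE 0.73, adjusted p = 0.047), and library B was far below A and C in both. JG cells gave 5.15, 4.98, 4.37, 4.66 and 4.61 and MM cells 4.59, 4.66, 4.84 and 4.63, all below background. Its call was lost in 8 of 16 alternatives, among them each single library left out other than standard-labelled B and diluted A. With the library letter as a block in limma it was kept, with an SE of 0.11 and an adjusted p of 2.8e-05. Slco1a6, its relative, had a log2 fold change of -0.45, lost in 4 of 16, and Slc22a7, which carries organic anions and cyclic nucleotides, 1.88.

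Slc22a6 (OAT1) and Slc22a8 (OAT3), the basolateral uptake carriers for organic anions, are neighbours on chromosome 19. Slc22a6 measured 11.79, 11.51 and 11.60 in diluted and 9.73, 9.59 and 9.63 in standard-labelled cortex, a log2 fold change of 1.98 (SE 0.10, adjusted p = 5.7e-07). JG cells gave 6.87, 8.74, 6.99, 7.14 and 7.20, with cell 5 alone above background, and MM cells 6.87, 6.44, 6.67 and 6.80, with none. JG cell 5 also had 2 of the 8 proximal tubule markers above background, Miox at 12.63 (6.28 to 7.40 in the other JG cells) and Gpx3 at 12.37 (6.57 to 7.46). Their summed level over the 8 was 63.3 there, against 50.2 to 52.4 in the other JG cells and 87.9 to 88.9 in diluted cortex, and Lrp2 and Cubn lay below background at 6.87 and 6.17. Diluted cortex itself gave Lrp2 at 8.13 to 8.30 and Cubn at 6.96 to 7.23, against a background of 7.92 in JG cell 5. Cubn at its cortex level would thus be below background there, and Lrp2 only just above it. Fbp1 (6.39), Gatm (5.60), Kap (6.18) and Pck1 (7.11) were below background in that cell too. Their means in diluted cortex were 13.09, 12.10, 10.88 and 12.33. Outside the 8, Ttc36 was above background in JG cell 5 at 10.19 (7.39 to 8.81 in the other JG cells, diluted mean 13.16). Atp1b1, of the list of transporters of most cell types, measured 9.93 there (6.43 to 7.0, diluted mean 12.55). Both were picked after their values were seen. Of 13 metabolic genes of the proximal tubule, among them Ttc36, Miox and Gpx3, 0 to 3 were above background in each JG cell. The part of tubule RNA in the Slc22a6 signal was not tested. The same 43 transporters were lower in JG cells without cells 4 and 5, those with the fewest genes above background. Slc22a8 gave 10.20, 10.42 and 10.37 against 9.63, 10.11 and 9.85, a log2 fold change of 0.47 that 2 of 16 alternatives lost. It was above background in JG cell 8 and MM cells 14 and 15, among 6.81, 7.24, 6.83, 7.54 and 8.17 in JG and 7.46, 7.45, 6.85 and 7.11 in MM cells.

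**Figure D3:**
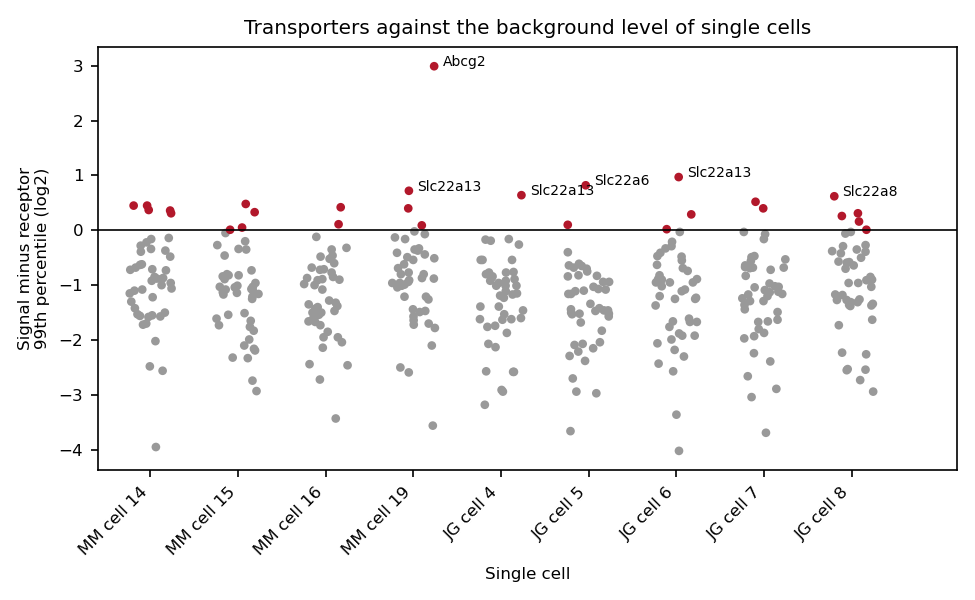
Signal of the 45 transporters in each single cell minus the receptors' 99th percentile on that array (log2; points are genes, spread sideways for sight, red where above 0). Genes more than 0.6 above it carry their names. Abcg2 in MM cell 19, at 10.12 over a background of 7.13, stands far from all others.

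Carriers of organic cations and carnitine were 3 higher and 1 lower in diluted cortex. Slc22a2 (OCT2), the basolateral organic cation carrier, measured 11.80, 11.70 and 11.80 in diluted and 11.56, 11.55 and 11.57 in standard-labelled cortex, a log2 fold change of 0.21 (SE 0.08, adjusted p = 0.041). That small difference was lost in 9 of 16 alternatives and turned to -0.02 under quantile normalization. Its cells gave 6.96, 7.17, 7.70, 7.23 and 7.26 (JG) and 7.01, 7.20, 6.84 and 6.69 (MM), all below background. Slc22a18, an imprinted member of the family, measured 11.82, 11.82 and 11.92 against 10.07, 10.28 and 10.35 (log2 fold change 1.62). It was above background in JG cells 6, 7 and 8 and MM cells 14 and 19, among 7.57, 7.52, 8.02, 8.22 and 7.81 in JG and 7.52, 7.35, 7.44 and 7.53 in MM cells, each at most 0.53 over background. Slc22a5, the carnitine carrier OCTN2, gave 8.83, 8.56 and 8.51 against 9.27, 9.07 and 9.35 (-0.60), with 5.97, 6.24, 5.55, 6.61 and 6.17 in JG and 6.23, 5.64, 5.94 and 5.64 in MM cells. Slc22a4, its relative OCTN1, was higher in diluted cortex by 0.97.

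Vitamin C and fatty acid carriers were both higher in diluted cortex. Slc27a2, which takes up and activates fatty acids, measured 13.22, 13.12 and 13.21 in diluted and 12.99, 12.86 and 12.97 in standard-labelled cortex, a difference of 0.24 that was lost in 6 of 16 alternatives. JG cells gave 5.16, 5.63, 5.74, 6.41 and 6.18 and MM cells 6.27, 5.67, 6.65 and 5.49, all below background. Slc23a1, the brush border ascorbate carrier, measured 11.09, 10.80 and 10.88 against 9.64, 9.85 and 9.66 (log2 fold change 1.20), 6.20, 6.98, 7.10, 7.01 and 6.37 in JG and 5.85, 6.31, 6.16 and 6.19 in MM cells.

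None of the 3 ABC efflux pumps was higher in diluted cortex. Abcg2, a luminal pump for urate and many drugs, measured 11.25, 11.19 and 11.12 in diluted and 11.43, 11.53 and 11.56 in standard-labelled cortex, a log2 fold change of -0.32 (SE 0.09, adjusted p = 0.0096), lost in 3 of 16 alternatives. JG cells gave 4.82, 5.88, 7.40, 5.83 and 5.32, none above background. MM cells gave 5.59, 5.08, 5.61 and 10.12, so that cell 19 alone approached cortex, and it was the only cell in which any transporter exceeded the highest receptor on its array. Of the 8 proximal tubule markers, Pck1 (7.51) and Gpx3 (11.57) were above background in MM cell 19. The same 2 passed in MM cell 14 (7.19 and 7.48 over 7.15), and Gpx3 in MM cell 15 (8.87 over 7.40), where Abcg2 was at background. In MM cell 19, Lrp2 (6.15) and Cubn (5.91) were below its background level, 7.13. Their means in diluted cortex were 8.21 and 7.05, so Cubn at its cortex level would be below it too. Fbp1 (5.81), Gatm (4.74), Miox (6.09) and Kap (6.17) were also below it, against diluted means of 13.09, 12.10, 12.39 and 10.88. The 8 summed to 54.0, against 51.0 to 51.4 in the other MM cells, and their part in the Abcg2 signal was not tested. Abcc2, a luminal pump for conjugated anions, measured 8.52, 8.20 and 8.39 against 10.25, 10.19 and 10.29, a log2 fold change of -1.87 (SE 0.10, adjusted p = 8.5e-07), with 6.13, 6.48, 5.85, 5.90 and 6.65 in JG and 6.42, 6.19, 6.28 and 6.17 in MM cells. Abcc4 was dim everywhere, at 6.10, 6.91 and 6.54 in diluted and 6.59, 6.65 and 6.42 in standard-labelled cortex (adjusted p = 0.88), and the cells (6.93, 6.98, 6.62, 6.73 and 6.59 in JG, 6.30, 6.23, 7.24 and 6.59 in MM) were as high.

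Aqp1, the water channel of the proximal tubule and thin limb, measured 10.92, 10.95 and 10.83 in diluted and 8.33, 9.03 and 8.85 in standard-labelled cortex, a log2 fold change of 2.16 (SE 0.17, adjusted p = 6.9e-06). JG cells gave 7.56, 7.27, 7.52, 7.67 and 7.05 and MM cells 6.78, 7.41, 7.67 and 6.51, with MM cells 15 and 16 above background and every cell under the lowest cortex library. In all, 8 transporters passed background in at least 1 MM cell and 7 in at least 1 JG cell, where 30.7% and 21.4% of all genes did. Slc5a2, Slc22a8, Slc22a13 and Slc22a18 were in both counts.

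Lengths of the genes, from the first to the last base of the gene in RefSeq (GRCm38.p6), went with the labelling difference. Slc34a3 (5.37 kb) and Slc22a12 (7.22 kb) had the 2 highest fold changes, and Slc4a4, the longest gene of the 45 (446 kb), the lowest. Over the 45 transporters the correlation of log10 length with the log2 fold change was r = -0.68 (Spearman's rho = -0.67), and over 11881 genes tested with a length r = -0.33 (rho = -0.37). The 23 transporters of up to 28.7 kb had a median log2 fold change of 1.79 and the 22 longer ones -0.14. Among the 23 shorter genes, 4 nonetheless had a log2 fold change of -0.05 or less, Slc26a1 (8.5 kb, -0.07), Slc7a13 (23.5 kb, -1.01), Slc17a3 (23.8 kb, -0.49) and Slc22a5 (27.3 kb, -0.60). Cltrn (28.7 kb, -0.00) and Slc17a1 (28.1 kb, 0.17) were near level as well. Among the 22 longer ones, 3 were higher by at least 1 log2 unit, Slc2a2 (30.5 kb, 1.03), Slc5a10 (48.0 kb, 3.25) and Slc13a3 (67.9 kb, 1.84). These correlations are across genes that share the same 6 libraries, which are not independent replicates, and the length of the transcript and the place of the probes along it were not used here.

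**Figure D4:**
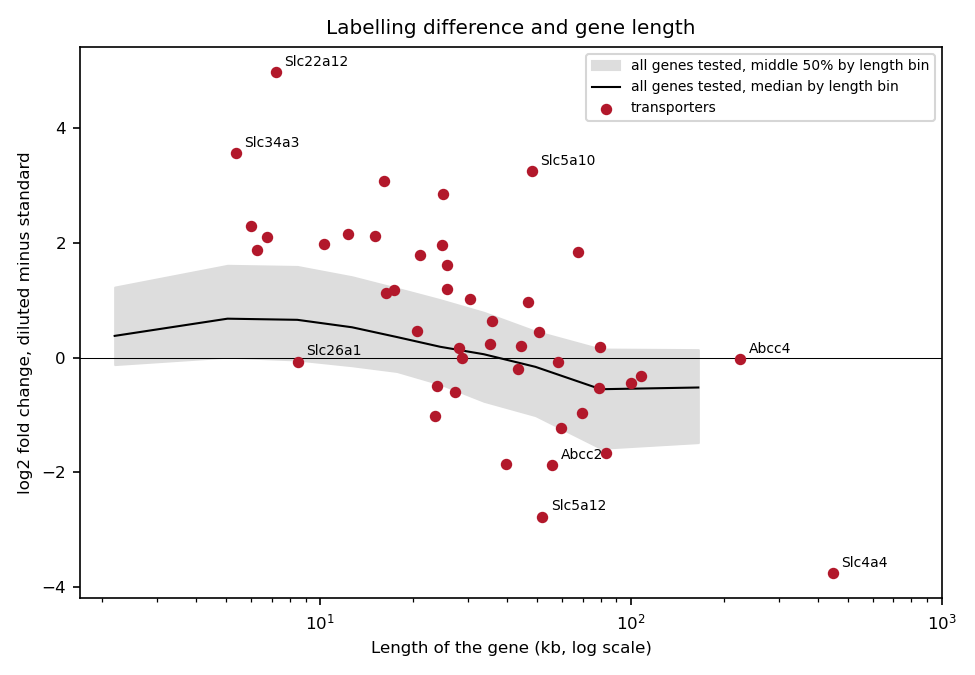
Log2 fold change, diluted minus standard-labelled cortex, against gene length (kb, log axis) for the 45 transporters (red points) and for all genes tested (line, median in 10 equal bins by length; grey, the middle 50% of the genes in a bin). The transporters run from Slc22a12 (4.98) among short genes to Slc4a4 (-3.76) at 446 kb, and the median of all genes is 0.38 in the shortest bin, 0.68 in the next, -0.55 in the last but one and -0.52 in the longest.

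Other genes of the tubule were described from lists as well. Of 13 genes for endocytosis and the brush border, 5 were higher and 8 lower in diluted cortex, among them the peptidase Mep1a (-0.57), the scaffold Pdzk1 (0.75) and the endocytic receptor Lrp2 (-3.11). Of 13 metabolic genes, 10 were higher and 2 lower, and of the 3 brightest, Kap, an androgen-regulated protein, had -1.93, Gpx3, a secreted peroxidase, -0.39 and Cyp2e1, a P450 enzyme, -0.11 (adjusted p = 0.59). Of 8 transcription regulators, 2 were higher and 3 lower, with Nr1h4 at -0.79, Hnf4a at -0.21 (adjusted p = 0.12) and Maf at -0.17 (adjusted p = 0.12). Transporters of later segments had 7 of 16 higher and 5 lower, and transporters of most cell types 8 of 18 and 5. Against diluted cortex, all 13 genes for endocytosis and the brush border were lower in both JG and MM cells, as were 11 (JG) and 13 (MM) of the 13 metabolic genes. For transporters of later segments the counts were 11 and 12 of 16, and for those of most cell types 9 and 12 of 18.

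Library B differed from A and C in some transporters under both labellings, a pattern singled out after its values were seen. In Slco1a1, B minus the mean of A and C was -2.24 in standard-labelled and -1.95 in diluted cortex. It was the only transporter of which B was lowest by at least 1 log2 unit in both, as were 8 of 19938 genes (0.0401%). Without B under both labellings, the Slco1a1 fold change was -1.95 with an adjusted p of 0.00027. B was lowest under both labellings in 20 of the 45 transporters (13.1% of all genes) and highest in 6 (15.4%). Organic anion carriers made up 7 of the 20, and the 20 included Slc2a5 (-0.58 and -0.49), Slc22a7 (-0.43 and -0.37) and Slc22a4 (-0.32 and -0.81). B was highest in Slc34a1, Slc26a1, Slc1a1, Slc22a8, Abcc4 and Aqp1. It was also highest under both labellings in 5 of 6 smooth muscle markers, with a median of 0.46 and 0.22 over A and C, in 3 of 4 intercalated cell markers and in 2 of 4 endothelial ones, and in 4 of 13 metabolic genes, of which it was lowest in 5. Of 13 endocytosis genes it was lowest in 5 and highest in 1. Their part in the result was not tested. The labels do not say whether a letter marks a mouse.

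**Figure D5:**
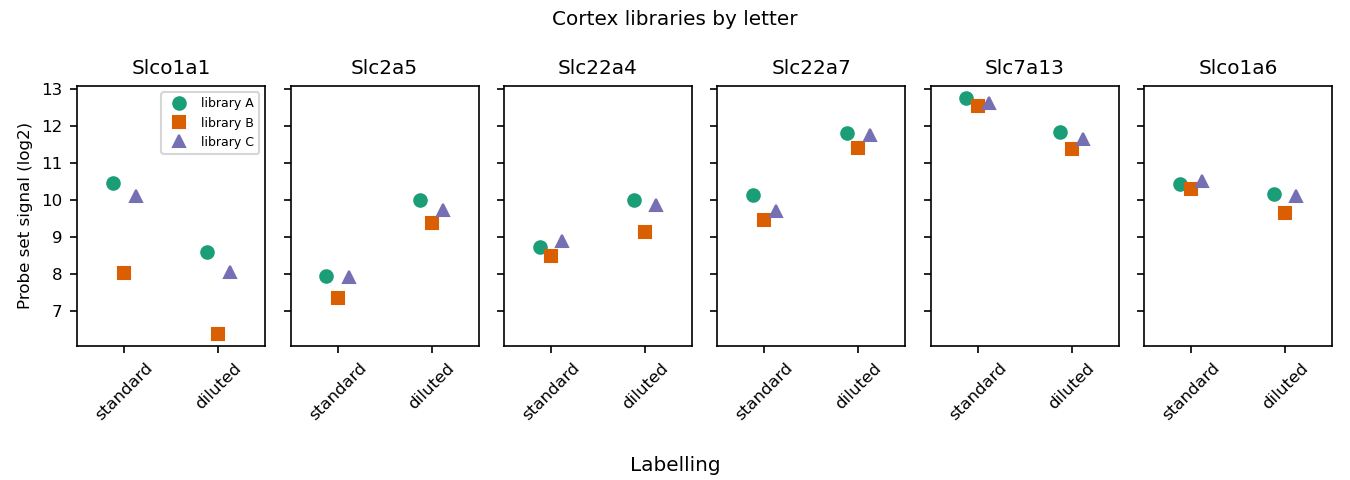
Signal (log2) of 6 transporters in the cortex libraries A, B and C (circles, squares and triangles) under each labelling. Library B is the lowest in every panel under both labellings and farthest from A and C in Slco1a1 (8.04 against 10.46 and 10.11, and 6.39 against 8.60 and 8.07).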

How the data were processed

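The 15 arrays are 4 MM cells, 5 JG cells and 3 libraries each of diluted and standard-labelled cortex. The values used are log2 probe set signals deposited by the authors, for which the submitters' processing notes name Affymetrix Expression Console. Which version, summary method or normalization they used is not given in the sources here. There were 35557 probe sets, from 2.22 to 13.98, with 0 missing. The platform annotation names 23410, 21789 with 1 symbol and 1621 with several, and 12147 are unlisted. RefSeq (GRCm38.p6) matched 21698, with 0 symbols changed.

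The 45 genes and all other lists were chosen with earlier results of these data known. A gene's brightest probe set over 15 arrays was used. Values on every array are given for the 3 members per class brightest in standard-labelled cortex, the 5 highest and 5 lowest between labellings, and all members above background in a cell. Of other lists, at most the 3 brightest are named, besides genes chosen after their values were seen. These are Miox, Pck1, Fbp1, Gatm, Cubn, Ttc36, Atp1b1, Slc25a4, Six2, Crym, Foxd1 and the renin cell markers. Cortex was tested with limma 3.58.1 (lmFit, eBayes) in R 4.3.3, checked on simulated data. Cells were compared in Python 3.11.15 without a test. The number of arrays limits precision. Alternatives covered filters, scaling, samples, the background level and the library letter. No genome coordinates of probe sets are given, since the annotation names no build.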

Additional observations from a re-analysis of the deposited data

Results flagged for a closer look

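In 4 of 90 groups tested (45 genes in MM cells and in JG cells), 1 cell lay far from the others of its group, by Dixon's test at 95%, and chance alone gives about 1 in 20. Abcg2 in MM cell 19 was 10.12, against 5.08 to 5.61 in the other MM cells and a background level of 7.13. Slc22a6 in JG cell 5 was 8.74, against 6.87 to 7.20 in the other JG cells and a background of 7.92. The other flags lie below background, where differences carry little: Slc3a1 in MM cell 15 at 6.67 (others 6.09 to 6.18) and Slc7a7 in JG cell 5 at 5.71 (others 6.64 to 6.96). Groups of 3 libraries were not tested in this way.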

How the results depend on the processing

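The choice of alternatives was mostly made with the design, and leaving out B under both labellings and JG cells 4 and 5 was chosen after seeing the data. Over the 45 transporters and 16 alternatives each, 660 of 720 labelling differences kept their direction and side of the threshold. Of the rest, 37 lost the call, 5 gained it and 18 changed sign. The dimmest probe set of a gene is 1 of the 16. Since each member has 1 probe set, it repeats the first fit and could change nothing. The sign changed for 7 genes, all small and 6 of them without a call in the first place. By array medians Slc26a1 became 0.10, Slc5a1 0.10, Cltrn 0.17 and Abcc4 0.14, and by receptor medians Cltrn 0.04 and Abcc4 0.01. Quantile normalization gave Slc13a1 -0.10, Slc17a1 -0.00, Slc22a2 -0.02 and Abcc4 0.02. Without B under both labellings Slc26a1 was 0.10 and Slc5a1 0.03. With 1 cortex library left out, Slc26a1 ranged from -0.26 to 0.14, Slc5a1 from -0.19 to 0.03, Cltrn from -0.03 to 0.02 and Abcc4 from -0.23 to 0.17. The cause of these changes was not tested. Members passing ranged from 34 to 37 with 1 library left out, against 38. The median fold change of the members, 0.44, moved to 0.62 by array medians and 0.20 by quantile normalization. With all 15 arrays in 1 fit, 29 members passed, 8 of them lower instead of 13, and 6729 probe sets instead of 13411.

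With the library letter as replicate block, 37 members passed (24 higher, 13 lower) and 13495 probe sets. The labels do not say that a letter marks a mouse, so the letters were not taken to pair the libraries. Deviations from the group means correlated at 0.18, 0.18 and 0.05 between libraries of letter A, B and C. Each library correlated best with its own letter, a hint from the data and not from the design.

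For the members in JG cells the median difference beyond the receptor shift, -5.24, was -4.18 without the shift, -4.69 by array medians and -3.89 against standard-labelled cortex. For MM cells, also -5.24, it was -4.40, -4.77 and -4.11. The median between MM and JG cells, -0.10, was 0.03 with group medians, and -0.13 to 0.02 with 1 cell left out. Members above background in at least 1 cell numbered 8 (MM) and 7 (JG). At the receptors' 95th percentile they were 23 and 22 (52.9% and 48.8% of all genes), with vomeronasal receptors only 21 and 22 (49.9% and 49.1%), and above the highest receptor 1 and 0 (16.9% and 7.01%). How many of the 45 are above background in a cell thus depends on the level chosen, and the deposited values hold no signal-over-background measure of their own. Each member has 1 probe set, so taking the dimmest or any probe set changed none of these values.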

Other observations

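The 8 genes of which library B was lowest by at least 1 log2 unit under both labellings were Slco1a1, Cyp7b1, Upp2, Ciart, Ccl28, Nat8f5, Tex21 and Gm15441, chosen after their values were seen. Cyp7b1, a steroid and oxysterol hydroxylase, measured 10.57, 7.39 and 9.90 in standard-labelled libraries A, B and C and 10.72, 7.85 and 10.09 in diluted ones. Ciart, a repressor of the circadian clock, measured 6.74, 5.15 and 6.54, and 8.37, 5.45 and 7.63. Upp2, a uridine phosphorylase, measured 9.57, 8.02 and 9.16, and 8.02, 6.64 and 7.53. Nat8f5, of an acetyltransferase family, measured 9.08, 7.61 and 8.53, and 9.48, 8.03 and 8.95. The 13 metabolic genes of the proximal tubule went both ways, with B lowest under both labellings in 5 and highest in 4. For Kap, B minus the mean of A and C was 0.07 in standard-labelled and 0.30 in diluted cortex, and for Pck1 -0.88 and -0.74. What lies behind the pattern was not tested.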
